A study of Homo sapiens with 2 samples.

Results

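The genes described here are 58 nucleolar ribosome assembly factors, taken as a list by gene symbol out of 28130 genes with a count table entry. They comprise 26 proteins of the small-subunit processome, 5 factors of the late pre-40S particle, 17 large-subunit assembly factors, 8 core proteins of the small nucleolar ribonucleoproteins (snoRNPs), and the abundant nucleolar proteins NPM1 and NCL. Poly-A RNA of HEK293T, a human embryonic kidney cell line, was sequenced from 1 library of cells transfected with a mimetic of the tRNA-derived fragment tRF-3004b and from 1 library of cells transfected with a non-targeting control RNA, GL2. Both oligos were used at 500 nM with the lipid reagent Lipofectamine RNAiMax, and cells were collected 120 h later. With 1 library per group there was no replicate check, no p-value is given, and every difference is one between these libraries. The 95% intervals cover counting error only.

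Ribosomes are built in the nucleolus on a long precursor RNA transcribed by RNA polymerase I. The small-subunit processome packages the start of this precursor around the U3 snoRNA and prepares the cuts that release 18S rRNA. Large-subunit factors fold and trim the 28S and 5.8S part and bring in the 5S ribonucleoprotein. The snoRNPs carry guide RNAs that direct ribose methylation (box C/D) or pseudouridylation (box H/ACA) of the rRNA. These factors are known to be highly expressed in fast-growing cell lines such as HEK293T.

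The oligos are shown because their bases 2 to 8, the seed, given in capitals, decide which sites are searched for below.
tRF-3004b: uCAAAUCUcgguggaaccucca
GL2 control: cGUACGCGgaauacuucgauu
The tRF-3004b mimetic had 22 bases and the control 21 bases.

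The tRF-3004b library held 1809193 estimated counts and the control library 19609933, a 10.8-fold difference in depth. The 58 genes had a median of 264 counts in the tRF-3004b library, from 6 for NOC4L to 12618 for NPM1, and a median of 1404 in the control library, from 86 to 60304. Of 10 genes chosen as marks of HEK293T, 9 were detected in the tRF-3004b library, where LHX1 was at 0, and 10 in the control library. Summed, these markers had 1184 CPM (counts scaled to library size) in the tRF-3004b library and 1728 CPM in the control library. VIM made up most of this sum, with 1740 counts in the tRF-3004b library and 28858 in the control library. KRT8, KRT18, NEFM, INA and PAX2 had log2 ratios above 0, from 0.22 to 1.22, and VIM and NEFL below 0. PAX2 had 2 counts in the tRF-3004b library and 19 in the control library. Summed markers of other cells were low and higher in the tRF-3004b library. The 10 fibroblast markers had 119 CPM in the tRF-3004b library and 36.6 in the control library. The 10 epithelial markers had 43.3 CPM in the tRF-3004b library and 12.4 in the control library, with KRT5, KRT14 and UPK3A at 0 in both. The 10 blood markers had 54.6 CPM in the tRF-3004b library and 4.11 in the control library, with CD79A at 0 in the tRF-3004b library and CD3E and CD14 at 0 in the control library. The part of such cells in the values below was not tested. In bulk RNA, fewer cells that express a gene and less RNA per cell cannot be told apart.

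Assembly factors were higher in the tRF-3004b library in nearly the whole list, with the large-subunit factors, the late pre-40S factors and the snoRNP proteins further up in their medians than the processome. All 58 averaged 1 CPM or more over the libraries (the limit for an expressed gene here), and 52 averaged 10 CPM or more (well counted). Of the 58, 55 had a log2 ratio (tRF-3004b over control, counts scaled by TMM) above 0, a direction held by 44.5% of the 13752 expressed genes. The median was 0.72 (interval of the median 0.55 to 0.87), against -0.11 over all expressed genes. The interval lay above 0 for 46 members, against 23.3% of all genes, and below 0 for 2, against 28.6%. At least 2-fold higher were 19 members, against 12.2% of all genes, and 0 were at least 2-fold lower, against 14.2%. Of the 52 well-counted members, 18 were at least 2-fold higher, against 6.11% of the 8711 well-counted genes, and 0 lower by that much, against 8.56%. Of the same 52, 45 had an interval above 0, against 26.8%, and 2 below 0, against 36.7%. The 58 genes together held 1.75% of counts in the tRF-3004b library and 0.992% in the control library, and without NPM1 and NCL 0.860% in the tRF-3004b library and 0.544% in the control library.

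By subunit, the median log2 ratio was 0.39 for the processome (interval of the median 0.24 to 0.72), 1.06 for the late pre-40S factors (range -0.48 to 1.51 over 5 genes), 1.04 for the large-subunit factors (interval 0.55 to 1.60) and 0.96 for the snoRNP proteins (interval 0.52 to 1.50). Over the 21 well-counted processome genes it was 0.62, and over the 16 well-counted large-subunit genes 1.03. At least 2-fold higher were 1 of 26 processome genes (3.85%) and 3 of 5 late pre-40S genes, against 12.2% of expressed genes. So were 10 of 17 large-subunit genes (58.8%) and 4 of 8 snoRNP genes. The processome gene, WDR46, was 1 of the 21 well-counted ones, against 6.11% of all well-counted genes. Relative to genes of their own length (described below), UTP20, UTP15, WDR46, UTP23 and BMS1 passed 2-fold, as did 1521 of 13752 expressed genes. The processome share beside that of all genes thus depended on the count limit and on length. The interval of the processome median overlapped those of the large-subunit and snoRNP medians, and the difference between the sets was not tested.

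**Figure D1:**
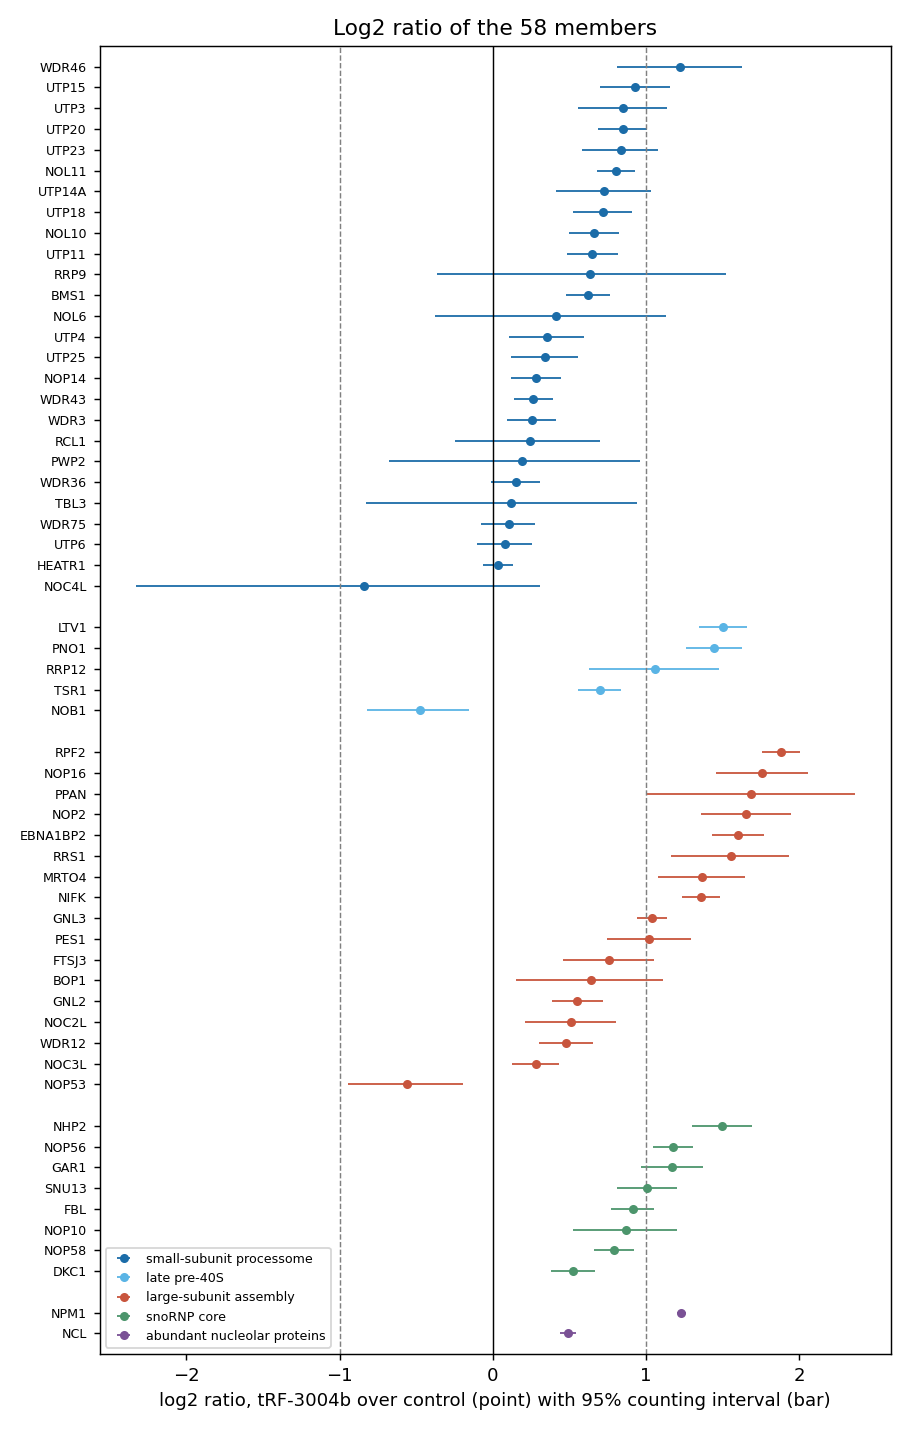
Log2 ratio of each of the 58 genes, tRF-3004b over control (x axis), sorted within each set, with the 95% counting interval as a bar. Dashed lines mark a 2-fold difference. Most large-subunit factors lie to the right of most processome proteins, and NOC4L, NOB1 and NOP53 are the genes left of 0.

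Of the 26 processome genes 25 were higher, and 1 of these by at least 2-fold. Its UTP-A subcomplex binds the precursor first. In UTP-A, HEATR1, a very long scaffold protein, had 948 counts and 112 TPM (a length-scaled transcript level) in the tRF-3004b library, against 10395 counts and 139 TPM in the control library. Its log2 ratio was 0.03 (interval -0.06 to 0.13), so the libraries did not differ for HEATR1 beyond counting error. NOL11 had 629 counts in the tRF-3004b library and 4036 in the control library, with a log2 ratio of 0.81 (interval 0.68 to 0.93). UTP15 had 184 counts in the tRF-3004b library and 1083 in the control library, with a log2 ratio of 0.93 (interval 0.70 to 1.16). The other UTP-A proteins stood lower, with log2 ratios of 0.10 for WDR75, 0.26 for WDR43 and 0.35 for UTP4. Members of this subcomplex thus spread over a range wider than their intervals, and their levels ran from 36.5 TPM (UTP15) to 234 TPM (NOL11) in the tRF-3004b library and from 24.3 to 171 TPM (WDR43) in the control library.

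UTP-B, which joins UTP-A and holds the U3 snoRNA, had a median of 0.17 over 6 genes, against 0.31 for the 6 genes of UTP-A. Relative to genes of their own length (described below) the medians were 0.48 for UTP-B and 0.43 for UTP-A, so their order depended on transcript length. UTP18, which also recruits the RNA exosome in yeast, was at 0.72 (255 counts in the tRF-3004b library and 1739 in the control library). WDR3 was at 0.25 (interval 0.09 to 0.41). The intervals of the other 4 held 0, with UTP6 at 0.08, TBL3 at 0.12, WDR36 at 0.15 and PWP2 at 0.19. TBL3 and PWP2 were thinly counted. TBL3 had 13 counts and 1.92 TPM in the tRF-3004b library and 134 counts and 2.24 TPM in the control library. PWP2 had 15 counts and 4.87 TPM in the tRF-3004b library and 147 counts and 5.35 TPM in the control library. These levels were far under the 35.5 to 144 TPM of the other UTP-B genes in the tRF-3004b library, although the proteins work in 1 complex.

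The remaining 14 processome genes had a median log2 ratio of 0.64. WDR46, the human counterpart of yeast Utp7, was the only processome gene past 2-fold, with 62 counts in the tRF-3004b library and 297 in the control library (log2 ratio 1.22, interval 0.81 to 1.63). UTP3 was at 0.85 with 114 counts in the tRF-3004b library and 708 in the control library. UTP20, a giant helical repeat protein, was at 0.85 with 361 counts in the tRF-3004b library and 2249 in the control library. UTP23 was at 0.84, NOL10 at 0.66, UTP11 at 0.65, RRP9, a U3-specific protein, at 0.64 (12 counts in the tRF-3004b library and 86 in the control library, interval -0.36 to 1.53) and NOL6 at 0.42 (18 counts in the tRF-3004b library and 151 in the control library). UTP25 was at 0.34 and NOP14 at 0.28. The GTPase BMS1 was at 0.62 and its partner RCL1 at 0.24 (interval -0.25 to 0.70). NOC4L, the partner of NOP14, was the 1 processome gene below 0, at -0.84, but it had only 6 counts in the tRF-3004b library and 122 in the control library, and its interval ran from -2.33 to 0.31. UTP6 and HEATR1 lay nearest to 0 among the well-counted processome genes.

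**Figure D2:**
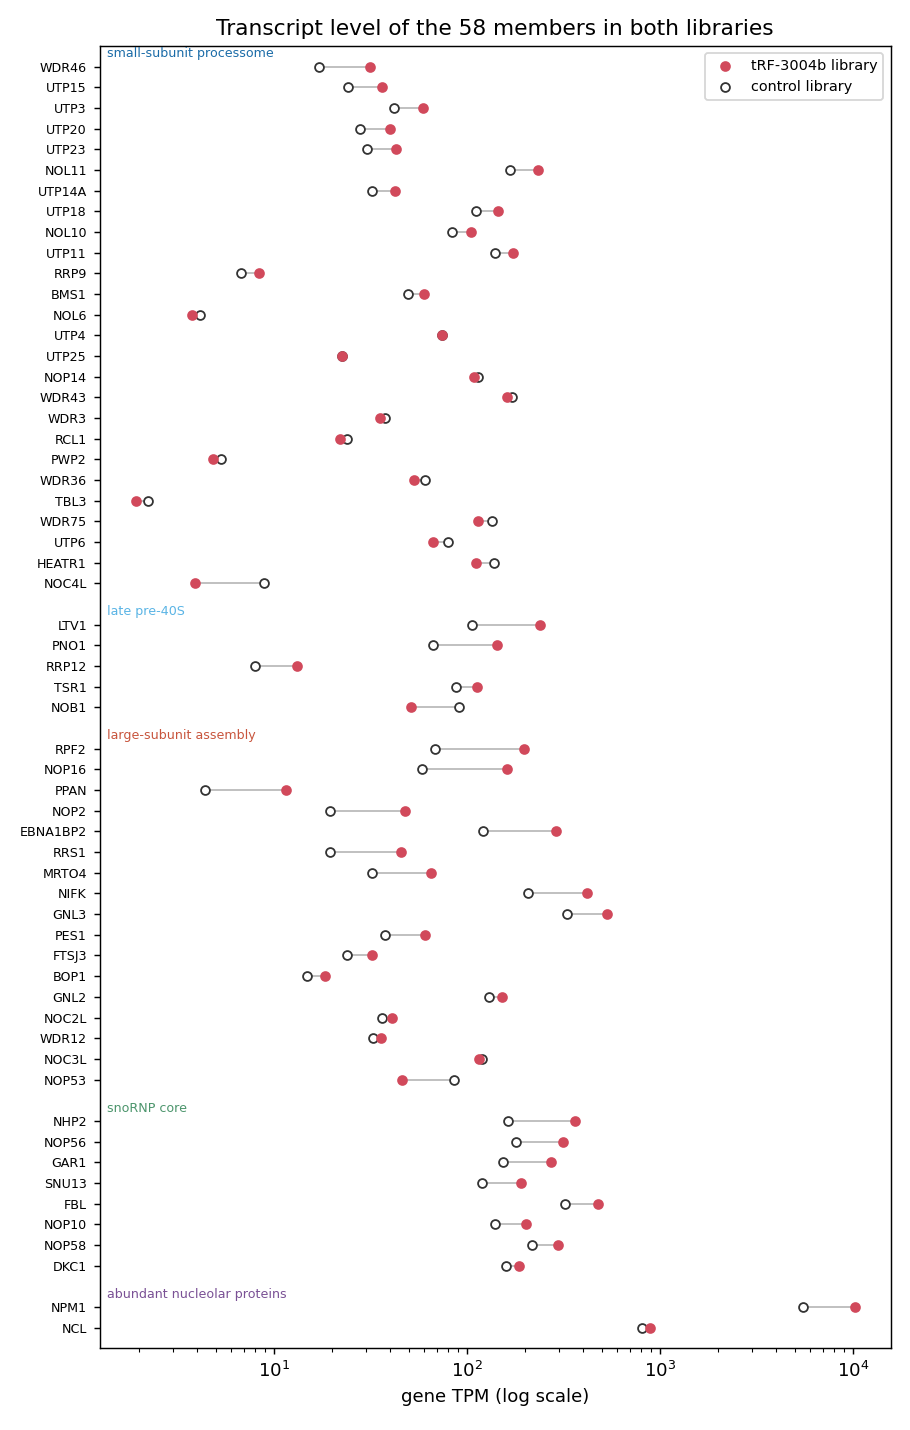
TPM of each gene on a log axis (x axis) in the tRF-3004b library (filled) and the control library (open), in the same order as the log2 ratios. Levels run from 1.92 TPM for TBL3 to 10215 TPM for NPM1 in the tRF-3004b library, and the points of UTP4 and UTP25 coincide.

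TPM and count ratios did not give the same sign for every gene. With 1 added to TPM, the median over all 13752 expressed genes was -0.38, against -0.11 on the count scale, and of the expressed genes past 2-fold 21.82% were higher, against 46.15% on the count scale. On the TPM scale the processome had a median log2 ratio of 0.01, the late pre-40S factors 0.66, the large-subunit factors 0.70 and the snoRNP proteins 0.62. Summed over the 26 processome genes, TPM was 1766 in the tRF-3004b library and 1613 in the control library. Summed over the 17 large-subunit genes it was 2280 in the tRF-3004b library and 1343 in the control library. Among members whose count interval lay above 0, the signs of the processome genes WDR3, WDR43 and NOP14, and among the large-subunit genes that of NOC3L, turned below 0 on the TPM scale.

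Late pre-40S factors escort the small subunit out of the nucleus and stay on it until the last cut. LTV1 (chr6:143843338-143863812 on GRCh38.p14), an export-linked factor whose removal precedes the final steps, had 421 counts and 239 TPM in the tRF-3004b library, against 1663 counts and 107 TPM in the control library, and was 2.84-fold higher (log2 ratio 1.51, interval 1.35 to 1.66). PNO1, which holds the 3' end of 18S rRNA, had 307 counts and 144 TPM in the tRF-3004b library, against 1264 counts and 67.1 TPM in the control library (log2 ratio 1.45, interval 1.26 to 1.63). NOB1 (chr16:69741871-69754926), the nuclease that makes the last cut of 18S rRNA next to PNO1, stood on the other side, with 82 counts and 51.2 TPM in the tRF-3004b library and 1281 counts and 91.0 TPM in the control library. Its log2 ratio was -0.48 (interval -0.82 to -0.15), so the gene sums of the direct partners PNO1 and NOB1 differed in direction in these libraries. The NOB1 sum includes a non-coding transcript with 0 counts in the tRF-3004b library and 259 in the control library. The coding transcript of NOB1 alone had 82 counts in the tRF-3004b library and 1022 in the control library. These counts stand beside a 10.8-fold difference in depth. The value of -0.48 is that of the gene sum, and whether NOB1 was lower in its coding transcript alone was not tested. RRP12, an export factor, was at 1.06 with 57 counts in the tRF-3004b library and 306 in the control library. The GTPase-like protein TSR1 was at 0.70 (interval 0.56 to 0.84).

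Among large-subunit factors the 5S loading pair stood high. RPF2 (chr6:110982038-111028263), which with RRS1 docks the 5S ribonucleoprotein on the pre-60S particle, had 713 counts and 198 TPM in the tRF-3004b library, against 2168 counts and 68.2 TPM in the control library. It was 3.69-fold higher (log2 ratio 1.88, interval 1.76 to 2.01), the highest of the 58, and lay at percentile 99.5 of the well-counted genes. RRS1 had 73 counts and 45.4 TPM in the tRF-3004b library and 278 counts and 19.5 TPM in the control library (log2 ratio 1.55, interval 1.17 to 1.94). Both RPF2 and RRS1 thus had their whole interval above 2-fold.

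Several nucleolar early-stage factors lay close to that pair. NOP16 had 122 counts and 162 TPM in the tRF-3004b library and 403 counts and 58.6 TPM in the control library (log2 ratio 1.76, interval 1.46 to 2.06). NOP2, a 28S rRNA cytosine methyltransferase, had 125 counts and 48.1 TPM in the tRF-3004b library and 444 counts and 19.6 TPM in the control library (log2 ratio 1.66, interval 1.36 to 1.95). EBNA1BP2, a factor of the early pre-60S particle, had 371 counts in the tRF-3004b library and 1371 in the control library (log2 ratio 1.60, interval 1.43 to 1.77). The intervals of NOP16, NOP2, EBNA1BP2 and RRS1 overlapped each other and that of RPF2, as did that of PPAN (1.00 to 2.36). The order of these genes, with RPF2 as the highest, is therefore not resolved. MRTO4, which occupies the site of the stalk protein P0 until late in maturation, was at 1.37 (128 counts in the tRF-3004b library and 556 in the control library). NIFK, a partner of the proliferation antigen Ki-67, was at 1.36 (660 counts in the tRF-3004b library and 2885 in the control library).

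The PeBoW complex, in which BOP1, PES1 and WDR12 act together in processing of the 28S side, was higher in all 3 genes but by less. PES1 was at 1.02 with 131 counts in the tRF-3004b library and 723 in the control library. BOP1 was at 0.64 (43 counts in the tRF-3004b library and 308 in the control library, interval 0.15 to 1.11). WDR12 was at 0.48 (291 counts in the tRF-3004b library and 2340 in the control library, interval 0.30 to 0.66), below the interval of PES1. Relative to genes of their own length WDR12 was at 0.95 and PES1 at 0.93. The GTPases GNL3 (nucleostemin) and GNL2 also differed from each other, at 1.04 (interval 0.94 to 1.14) and 0.55 (interval 0.39 to 0.72). The methyltransferase FTSJ3 was at 0.76. NOC2L was at 0.51 (109 counts in the tRF-3004b library and 856 in the control library) and NOC3L at 0.28 (390 counts in the tRF-3004b library and 3603 in the control library), the lowest values above 0 of the set together with WDR12. NOP53 (chr19:47745546-47757058), which recruits the exosome to trim the 5.8S precursor, was the only large-subunit gene below 0, with 64 counts and 46.1 TPM in the tRF-3004b library, against 1058 counts and 86.0 TPM in the control library (log2 ratio -0.56, interval -0.95 to -0.19).

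All 8 snoRNP core proteins were higher, with every interval above 0. Of the box C/D proteins, the scaffold NOP56 had 591 counts and 316 TPM in the tRF-3004b library, against 2930 counts and 180 TPM in the control library (log2 ratio 1.18, interval 1.05 to 1.31). Its paralogue NOP58 was at 0.79 (562 counts in the tRF-3004b library and 3639 in the control library, interval 0.66 to 0.92). In these gene sums NOP58 lay below NOP56 without overlap of the intervals. The NOP56 sum includes non-coding transcripts, with 237 counts in the tRF-3004b library and 665 in the control library. The coding transcript of NOP56 had 354 counts in the tRF-3004b library and 2265 in the control library. Whether that transcript alone differed from NOP58 was not tested. SNU13, which binds the kink-turn of the guide RNA, was at 1.01 (258 counts in the tRF-3004b library and 1437 in the control library), and the methyltransferase FBL at 0.91 (482 counts in the tRF-3004b library and 2870 in the control library). Of the box H/ACA proteins, NHP2 had 270 counts and 365 TPM in the tRF-3004b library and 1070 counts and 163 TPM in the control library (log2 ratio 1.50, interval 1.30 to 1.70). GAR1 was at 1.17 (244 counts in the tRF-3004b library and 1213 in the control library) and NOP10 at 0.87 (85 counts in the tRF-3004b library and 522 in the control library, interval 0.52 to 1.20). The pseudouridine synthase DKC1 was at 0.52 (451 counts in the tRF-3004b library and 3522 in the control library, interval 0.38 to 0.66), the lowest value of the 8, but relative to genes of its own length it was at 0.56, above NOP10, FBL and GAR1. The enzyme of each class, FBL and DKC1, thus did not have the highest value of its class. The interval of FBL (0.772 to 1.054) overlapped those of SNU13 (0.814 to 1.203) and NOP56 (1.049 to 1.307). The place of FBL among the box C/D proteins is therefore not resolved.

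The histone chaperone and shuttling protein NPM1 was the most abundant of the 58, with 12618 counts and 10215 TPM in the tRF-3004b library and 60304 counts and 5520 TPM in the control library (log2 ratio 1.23, interval 1.20 to 1.26). NCL, which binds nascent pre-rRNA, had 3442 counts and 894 TPM in the tRF-3004b library and 27462 counts and 806 TPM in the control library (log2 ratio 0.49, interval 0.44 to 0.54). Together both genes had 11110 TPM in the tRF-3004b library and 6326 TPM in the control library. Set against genes of their own length (described below), NPM1 was at 0.58 and NCL at 0.68, so their order depended on transcript length.

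Shorter transcripts were higher in the tRF-3004b library across the whole table, so each gene was also set against genes of its own length. Well-counted genes were divided into 10 bins by length, whose medians ran from 0.65 for the shortest transcripts to -0.47 for the longest. Across the 58 members the Spearman rho of length with log2 ratio was -0.41, and across 8567 well-counted genes with a GENCODE transcript it was -0.44. All points come from the same pair of libraries. The sets differed in length, with a median of 3334 bases for the processome, 2234 for the late pre-40S factors, 2302 for the large-subunit factors and 1293 for the snoRNP proteins. Relative to the median of their own bin, the medians were 0.56 for the processome, 1.22 for the late pre-40S factors, 0.95 for the large-subunit factors and 0.63 for the snoRNP proteins. The snoRNP proteins then stood close to the processome, and 55 of the 58 genes lay above their bin, against 49.1% of expressed genes.

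For single genes the bins mattered most at the ends of the range. UTP20, with a transcript of 9031 bases, was 1.32 above its bin, and WDR12, with 8068 bases, was 0.95 above. UTP15, BMS1 and UTP23, which had not passed 2-fold, were 1.26, 1.09 and 1.02 above. HEATR1, with 8459 bases and a log2 ratio near 0, was 0.50 above its bin. RPF2 was 2.07 above its bin. Among short transcripts, NOP10 with 552 bases was 0.22 above and FBL with 1125 bases 0.26 above. NOB1, NOP53 and NOC4L lay below their bins, with differences of -0.77, -0.85 and -1.13.

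**Figure D3:**
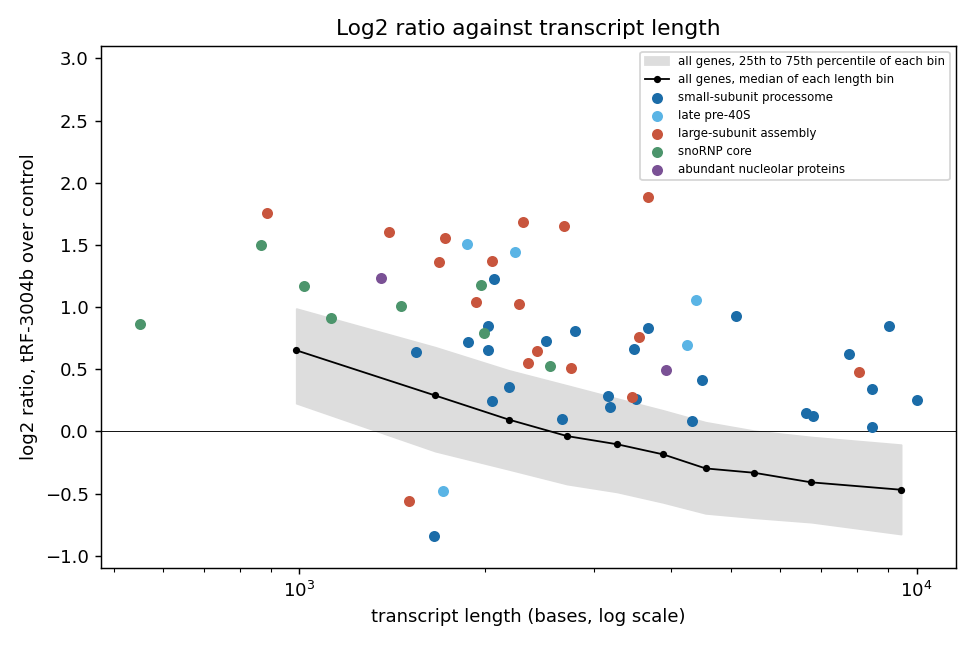
Log2 ratio (y axis) against transcript length in bases on a log axis (x axis) for the 58 genes, over the median of well-counted genes in each of 10 length bins (line) and their 25th to 75th percentile (grey). The bin medians go down from 0.65 to -0.47 with length, and 55 of the 58 genes lie above the median of their bin.

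Across the 58 genes the Spearman rho of GC content with TPM was -0.38 in the tRF-3004b library and -0.42 in the control library, while with the log2 ratio it was 0.03. The 8 snoRNP genes went the other way, with rho of 0.60 for TPM in the tRF-3004b library, 0.26 for TPM in the control library and 0.52 for the log2 ratio. Across the 8567 well-counted genes the rho with TPM was -0.17 in the tRF-3004b library and -0.23 in the control library. In the tRF-3004b library the lowest levels belonged to GC-rich transcripts, with TBL3 at 63.8% GC, NOC4L at 64.8%, NOL6 at 57.9%, PWP2 at 56.8% and RRP9 at 60.9%, against a median of 47.7% in the list. PPAN (63.2% GC) had 11.6 TPM in the tRF-3004b library and 4.39 TPM in the control library, the lowest level of the large-subunit set in both libraries.

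Some members share sequence with other genes, and kallisto then divides their reads by estimate. PPAN, a factor of the pre-60S particle, shares 87.2% of its 31-base words with the readthrough gene PPAN-P2RY11. PPAN alone had 25 counts in the tRF-3004b library and 86 in the control library (log2 ratio 1.69, interval 1.00 to 2.36), and the sum of both genes had 28 counts in the tRF-3004b library and 105 in the control library (1.57, interval 0.92 to 2.19). UTP14A, a processome protein, shares 20.8% of its words with the retrogene UTP14C. UTP14C had 42 counts in the tRF-3004b library and 0 in the control library. UTP14A alone was at 0.73 (102 counts in the tRF-3004b library and 690 in the control library), and UTP14A with UTP14C at 1.23 (144 counts in the tRF-3004b library and 690 in the control library). UTP14C in turn shares 28.4% of its words with ALG11, a glycosylation gene, which had 58 counts in the tRF-3004b library and 1417 in the control library. The sum of UTP14A, UTP14C and ALG11 was at 0.11 (interval -0.11 to 0.31) and that of UTP14C and ALG11 at -0.34, so the 0 of UTP14C in the control library is uncertain.

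BMS1 shares words with its pseudogenes BMS1P1, BMS1P2 and BMS1P4. BMS1P1 had 50 counts in the tRF-3004b library and 1632 in the control library. BMS1 alone had 466 counts in the tRF-3004b library and 3392 in the control library (log2 ratio 0.62), but the sum with the pseudogenes had 547 counts in the tRF-3004b library and 5731 in the control library (0.10, interval -0.03 to 0.23), so its interval then held 0. BMS1 shares at most 3.90% of its words with any of them. For NPM1, NOC2L, NOP53 and UTP11 the sums with their partners moved the log2 ratio by little, to 1.23, 0.54, -0.56 and 0.65. On the opposite strand, NHP2 overlaps RMND5B over 40.6% of its words, HEATR1 overlaps LGALS8 over 24.2% and TSR1 overlaps SRR over 20.1%. Libraries were made with a directional kit, but the strand setting of the counting is not given in the sources used here, and reads of such pairs may not have been told apart.

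Within genes, the estimated transcript mix also differed in places. Of the 58 genes 29 had 1 transcript in the table, and in 7 of the other 29 the share of the leading control transcript differed by at least 10 percentage points between the libraries. The share is that of the gene's TPM. How often it differed by that much over all genes was not computed, so the 7 is not read as a trait of the list. The coding transcript of NOP56 held 62.2% in the tRF-3004b library and 78.8% in the control library, and a non-coding transcript of 2093 bases held 37.0% (232 counts) in the tRF-3004b library and 16.1% (508 counts) in the control library. The leading transcript of NOP2 held 29.3% in the tRF-3004b library and 85.9% in the control library, with the rest on 3 near-identical coding transcripts. That of NOL10 held 46.4% in the tRF-3004b library and 77.0% in the control library. The non-coding transcript of NOB1 had 0 counts in the tRF-3004b library and 259 in the control library, where it held 21.0%. The others were NOL6, GNL2 and DKC1. These transcripts overlap over most of their length and the files give no error for the split.

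Promoters were compared because the genes were higher together. The word CACGTG, an E-box that the MYC and USF families of factors are known to bind, reads the same on both strands and was searched in RefSeq promoters of build GRCh38.p14, from 250 bases before to 50 bases after each annotated start. A gene counts as holding the word if any of its starts does. Of the 58 genes 50 had a promoter in the table, and UTP23, NOL10, RRP12, BOP1, RRS1, RPF2, NOP58 and SNU13 did not. CACGTG was found in 24 of the 50 (48%), against 13.3% of well-counted genes, 12.7% of expressed genes and 8.77% of all genes in the table. More than 1 start was listed for 5 of the 50 members (10%) and for 29.3% of well-counted genes. Counted per start, 45.5% of 55 windows held the word in the members and 9.76% in well-counted genes. It was found in 12 of 24 processome genes, 2 of 4 late pre-40S genes, 7 of 14 large-subunit genes and 3 of 6 snoRNP genes, and in neither NPM1 nor NCL. Of the other ribosome assembly factors described below, 32.5% of 80 held it.

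The words lay close to the start. Of 27 words in these 24 genes, 24 began within 100 bases of the annotated start, 19 of them after it. Stretches around it, with CACGTG in capitals, are shown for genes from each set to let the flanks be compared. All are written 5' to 3' on the strand of the gene.
LTV1: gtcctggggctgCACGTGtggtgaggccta
PNO1: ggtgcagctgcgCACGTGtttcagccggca
NOP2: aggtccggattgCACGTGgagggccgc
MRTO4: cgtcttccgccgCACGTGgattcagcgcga
GNL3: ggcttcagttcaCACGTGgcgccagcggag
GAR1: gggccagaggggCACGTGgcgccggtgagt
WDR46: agaggagttttgCACGTGgat
PWP2: tgagctgcggcaCACGTGcgacggccgtga
Counted from the start of the window's transcript as base 1, the word began at base 29 in LTV1 (chr6:143843354-143843383, plus strand), 10 in PNO1 (chr2:68157885-68157914, plus strand), 36 in NOP2 (chr12:6568242-6568268, minus strand) and 15 in MRTO4 (chr1:19251807-19251836, plus strand). It began at base 7 in GNL3 (chr3:52686026-52686055, plus strand), 32 in GAR1 (chr4:109815781-109815810, plus strand), 42 in WDR46 (chr6:33289190-33289210, minus strand) and 2 in PWP2 (chr21:44107388-44107417, plus strand). GNL3 and GAR1 have more than 1 annotated start, and these windows belong to the start further downstream. The stretches of NOP2 and WDR46 end where the promoter window ends.

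The NOP2 promoter is given whole (chr12:6568242-6568541, minus strand), since NOP2 is the highest gene with the word.
NOP2: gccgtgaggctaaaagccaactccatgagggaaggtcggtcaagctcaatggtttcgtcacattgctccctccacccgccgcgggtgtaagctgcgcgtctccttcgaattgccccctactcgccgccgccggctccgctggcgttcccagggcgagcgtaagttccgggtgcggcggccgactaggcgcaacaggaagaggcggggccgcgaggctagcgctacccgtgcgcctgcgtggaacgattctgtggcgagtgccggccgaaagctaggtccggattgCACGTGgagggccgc

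Inside the list, genes with and without the word overlapped widely in log2 ratio. The 24 genes with it had a median of 0.79, from 0.19 (PWP2) to 1.66 (NOP2), and the 26 without it 0.57. Relative to their length bins the medians were 0.62 with the word and 0.70 without. At least 2-fold higher were 9 of the 24 and 6 of the 26. Over expressed genes it was 159 of 1380 with the word and 1064 of 9526 without. Over well-counted genes it was 87 of 969 with the word and 353 of 6303 without. The difference between genes with and without the word was not tested. Among well-counted genes the medians were -0.03 with the word and -0.12 without.

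**Figure D4:**
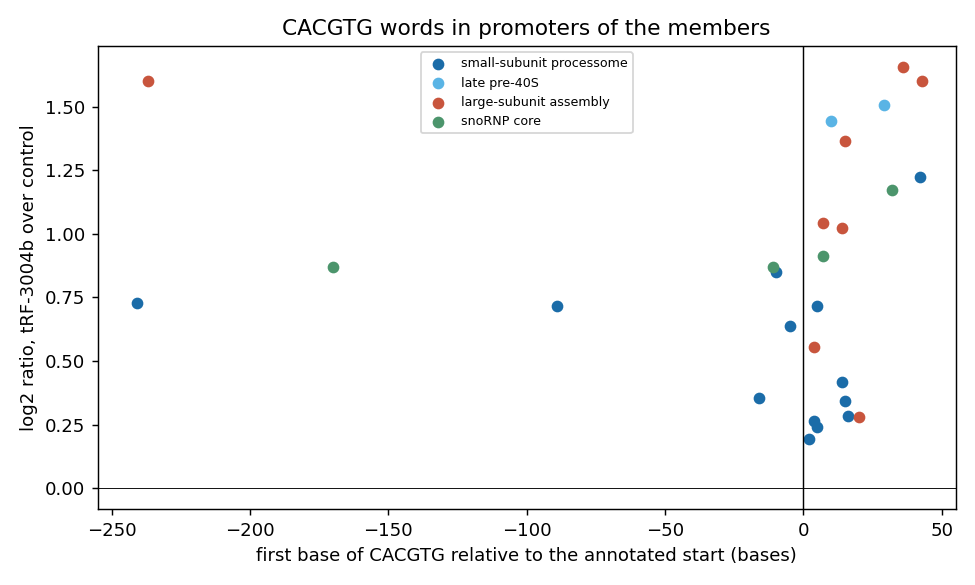
Log2 ratio of the gene (y axis) against the position of the first base of each CACGTG word relative to the annotated start of its window, in bases (x axis), coloured by set. Of the 27 words, 19 lie within 50 bases after the start, at log2 ratios from 0.19 to 1.66.

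Sites of the tRF-3004b seed were no more frequent in the list than in other genes. The complement of bases 2 to 8, AGATTTG, was searched in 3' UTRs of GENCODE 29 on GRCh38. It occurred in 8 of the 58 genes (13.8%), against 17.4% of the 8288 well-counted genes searched. These were NIFK, NOL10, UTP11, UTP15, WDR12, WDR3, WDR36 and WDR43. All 8 had log2 ratios above 0, from 0.15 for WDR36 to 1.36 for NIFK, with a median of 0.57, against 0.78 for the 50 genes without a site. Relative to genes of their own length, UTP15 was at 1.26, NIFK at 1.07, WDR12 at 0.95 and NOL10 at 0.77. On that scale WDR3 was at 0.72, UTP11 and WDR36 at 0.56 and WDR43 at 0.37, against a median of 0.72 over the 58. Among the well-counted genes the medians were -0.27 with a site and -0.08 without. These 2 medians were not set against transcript length, and a part of the sites in the levels was not tested. The matching site of the control oligo, CGCGTAC, occurred in 1 member (1.72%), TBL3, and in 0.181% of the well-counted genes. The sites of NIFK and UTP15, the highest of these genes, and of WDR12, which has the most sites, are shown with the 7 complementary bases in capitals.
NIFK: agttttagcacAGATTTGtttatgtgttc
UTP15: gaagttggaatAGATTTGactgtattaaa
UTP15: tgacactagctAGATTTGtattcagagtg
WDR12: ggtttgaattcAGATTTGcttttttattt
WDR12: tggccgaattaAGATTTGtttttgaaatg
WDR12: caatgatttgcAGATTTGaggaagtaaat
They lie in the 3' UTRs at chr2:121727224-121727230 (minus strand) for NIFK, at chr5:73580136-73580142 and chr5:73580703-73580709 (plus strand) for UTP15, and at chr2:202880580-202880586, chr2:202880270-202880276 and chr2:202875994-202876000 (minus strand) for WDR12. The coordinates are those of the 7 capital bases.

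Other ribosome assembly factors, a list of 93 genes, were higher as well. All 93 were expressed, with 85 above 0, against 44.5% of all expressed genes. The median log2 ratio was 0.62 (also with UTP14C set to a floor of 3 counts in the control library). The interval lay above 0 for 72, against 23.3% of expressed genes, and below 0 for 3, against 28.6%. At least 2-fold higher were 20 of them, against 12.2% of expressed genes, and 0 were 2-fold lower or more, against 14.2%. UTP14C, whose 0 in the control library is uncertain, is counted in the 85, the 72 and the 20. The medians were 0.83 over 32 small-subunit factors and 0.62 over 48 large-subunit factors, and 0.41 over 13 snoRNP and nucleolar factors. Relative to genes of their own length they were 0.64, 0.73 and 0.52, so the order of the small-subunit and large-subunit factors turned. On that scale the processome median of 0.56 lay close to the 0.64 of these small-subunit factors. The highest was UTP14C, with 42 counts in the tRF-3004b library and 0 in the control library, and no fold is given, since the sum with ALG11 was at -0.34. Next came ZNF593, a pre-60S factor, at 2.25 (50 counts in the tRF-3004b library and 117 in the control library), MPHOSPH10, a U3 protein, at 1.61 (333 counts in the tRF-3004b library and 1223 in the control library), and ESF1 at 1.57 (290 counts in the tRF-3004b library and 1093 in the control library). The lowest were XRN2, a nuclease with many nuclear roles, at -0.62 (398 counts in the tRF-3004b library and 6886 in the control library), NAF1, an H/ACA assembly factor, at -0.52 (85 counts in the tRF-3004b library and 1372 in the control library), the kinase RIOK3 at -0.47 (202 counts in the tRF-3004b library and 3135 in the control library), and TSR2, which escorts a small-subunit protein, at -0.06 (24 counts in the tRF-3004b library and 281 in the control library, interval -0.73 to 0.54).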

How the data were processed

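Per the submitters' processing notes, the tool was kallisto 0.46.1 and the build GRCh38. The authors deposited, per the file headers, an estimated count, a TPM value, a length and an effective length for each of 70866 RefSeq transcripts. The deposited TPM values are divided by effective length, share a fixed total and keep no depth. Per the labels' protocols, libraries were poly-A selected and directional. The sources used here do not give the annotation release, trimming or strand setting. Other values of the deposited files, lengths in bases, were used as given.

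Here estimated counts and TPM were summed per gene symbol (RefSeq table on GRCh38.p14, 70245 transcripts, then GENCODE 29, 309 transcripts; 312 stayed unnamed and were left out, 0.0617% of tRF-3004b and 0.0608% of control counts), and counts were rounded. TMM factors (edgeR 4.0.16, R 4.3.3) were 0.983 for the tRF-3004b library and 1.02 for the control library, and scaled the counts. No edgeR test was run, since 1 library per group leaves no spread. For the log2 ratio, counts were brought to the same library size and 0.5 was added. The 95% interval comes from the exact Clopper-Pearson interval of the tRF-3004b share of a gene's counts. No molecular identifiers are named, so reads may repeat a molecule and the intervals hold counting error alone. Median intervals are exact order-statistic intervals. Transcript length is the TPM-weighted mean over transcripts. Shared sequence was searched as 31-base words in GENCODE 29 transcripts, and sums were taken over same-strand partners with at least 200 shared words, a limit chosen after seeing the data. The computations were tested on simulated counts. Python 3.11.15 and SciPy 1.17.1 were used.

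The members and gene lists were chosen with earlier results of these data known. The rule gave in full the 4 highest and 4 lowest genes of each set averaging 10 CPM or more, sets of 8 or fewer, named subcomplexes and genes sharing sequence, and of the other factors the 4 highest and 4 lowest. The alternatives were scaling by total counts or by size factors of DESeq2 1.42.0, a 10 CPM filter, genes with any count, TPM plus 1 in place of counts, 5 in place of 0.5 counts, subtraction of the length bin median, and sums over genes sharing sequence. TPM minus the median of all genes was added after seeing the data.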

Additional observations from a re-analysis of the deposited data

How the results depend on the processing

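No paired analysis was possible because each group has 1 library, and leaving out a library was not possible for the same reason. Under total counts, DESeq2 size factors, both other filters, a pseudocount of 5 and sums over genes sharing sequence, the medians of the 4 sets, of the 58 genes and of the other factors stayed within the interval of the reported median, and the counts within 1.5 times. The 10 CPM filter moved the processome median to 0.62 from 21 genes (reported 0.39), and left the large-subunit median at 1.03. With gene TPM and 1 added, the medians were 0.38 for the 58 genes, 0.0087 for the processome and 0.29 for the other factors. The median of expressed genes moved to -0.38 (reported scale -0.11). On that TPM scale 11 of the 58 genes were 2-fold higher or more, against 680 of 13752 expressed genes. Lower by that much was 1 of the 58, against 2436 of the 13752. Of the genes past 2-fold, 46.15% were higher on the reported scale, 21.82% with TPM plus 1, 59.44% with TPM plus 1 minus the median of all genes and 37.34% over genes with any count. With TPM plus 1, WDR3, WDR43, NOP14 and NOC3L turned to -0.0863, -0.0760, -0.0678 and -0.0602. Minus that all-gene median, 57 of the 58 genes stayed within their counting interval. Subtracting the length bin median left 1 gene, NOC4L, at least 2-fold lower, against 1705 of 13752 expressed genes. It moved 23 genes out of their interval, none of them across 0. Genes with few counts in the tRF-3004b library (NOC4L, RRP9, TBL3, PWP2, NOL6) are limited by depth.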
